A study of Mus musculus with 4 samples.

Results

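Transcripts of the cyclin-dependent kinase inhibitors were examined in mouse lenses with a conditional knockout of Celf1, an RNA-binding protein that controls the splicing, stability and translation of its target transcripts. The members were the 4 INK4 genes (Cdkn2a, Cdkn2b, Cdkn2c and Cdkn2d) and the 3 CIP/KIP genes (Cdkn1a, Cdkn1b and Cdkn1c), taken by symbol as 7 of the 28842 genes with a probe on the Illumina MouseWG-6 v2.0 BeadChip. Lenses were collected at postnatal day 6 from 2 mouse groups of mixed C57BL/6J and FVB background, and RNA of 1 lens was put on each array. The Celf1 cKO group (n = 2, arrays A and B) carried 1 germline lacZ knock-in allele of Celf1, 1 Celf1 allele with an exon flanked by loxP sites, and the Pax6GFPCre transgene, which expresses Cre recombinase from the lens placode stage in the lens and also in the pancreatic lineage. The Control group (n = 2, arrays A and B) was Celf1 lacZKI/+, so that the lacZ allele was present in both groups, and the sources used here do not say whether these Control mice carried Cre. The methods call each lens a biological replicate, but the sources used here do not say that the 2 lenses of a group came from different mice, and the p-values then measure only the spread between these lenses.

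Cyclin-dependent kinases drive cells from growth into DNA replication and division when bound to a cyclin. The CIP/KIP proteins p21 (Cdkn1a), p27 (Cdkn1b) and p57 (Cdkn1c) bind complexes of cyclins with several kinases, while the INK4 proteins p16 (Cdkn2a), p15 (Cdkn2b), p18 (Cdkn2c) and p19 (Cdkn2d) bind CDK4 and CDK6 alone and keep them from D-type cyclins. In the lens, epithelial cells at the anterior surface divide, and cells that move past the equator leave the cell cycle for good and elongate into fiber cells, with p27 and p57 known to act in that exit.

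The array carried 14 probes for the 7 genes, each 50 bases long. The first 30 bases of the probes on which the values below rest are shown so that the measured stretch of each transcript is known. The number after the gene name is the base of the transcript record at which the probe begins.
Cdkn1a at 1428: tggcaaccccctgcattgtgggtctagggt
Cdkn1a at 1611: cttgggggctaagggagctcacaggacact
Cdkn1a at 1734: catcctggtctggactgtctacccttagcc
Cdkn1b at 921: acaatccggctgggttagcggagcagtgtc
Cdkn1c at 1785: gcccataccaactgcccagggctcctcgtc
Cdkn2c at 634: gggggacaccgccttcgacttggccaggtt
Cdkn2d at 944: ggtgtgttggacaaagaaggggctcctaca
The files place the probes on chromosome 17 (Cdkn1a), 6 (Cdkn1b), 7 (Cdkn1c) and 4 (Cdkn2a, Cdkn2b and Cdkn2c) and give no position for the Cdkn2d probe, whose gene is on chromosome 9 in the RefSeq gene table. The files name no genome build, and their positions for Cdkn1a begin at 28827907 for the probe at base 1428 and at 29237494 for the probe at base 1734, far apart for probes of the same transcript, so no other probe position is given here.

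A probe was taken as detected on an array where its detection p-value, which ranks the probe against negative control beads, was under 0.05. Genes with a probe detected on at least 2 arrays were tested, which held for 5 of the 7 inhibitors and for 11516 genes in all. Signals were corrected for background, brought to a common distribution by quantile normalization and expressed as log2 values. A gene was called elevated or reduced in cKO lenses where the limma adjusted p was below 0.05, the log2 fold change exceeded 0.58 in size and the mean log2 signal exceeded 4.6. Of the inhibitors tested, 3 of 5 were called, with Cdkn1a and Cdkn2d elevated and Cdkn2c reduced. Cdkn1a passed the detection filter through the cKO arrays alone, so its call is not read against the share over all genes, and the other 4 were detected on all arrays. Over all genes, 11.7% were called (1342 of 11516), with 6.02% elevated and 5.64% reduced. For each of those 4 the normalized cKO values were separate from the Control values, as they were for 62.3% of all genes tested. In whole lenses, fewer cells of a type and less RNA per cell cannot be told apart.

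The arrays differed in ways that touch these results. The cKO arrays had 16261 and 16925 detected probes, against 14542 and 14180 for Control. The upper percentile (99%) of unnormalized intensity was 3208.7 and 3444.3 in cKO lenses against 2158.4 and 1699.2 in Control lenses. Celf1, the targeted gene, had log2 signals of 7.45 and 6.95 in cKO lenses and 8.71 and 8.55 in Control lenses (log2 fold change -1.43 ± 0.19, limma adjusted p = 0.0099). The Celf1 value was -0.60 with no normalization between arrays and -0.64 with the same median for each array, where the medians over all genes were 0.57 and 0.53. Xist, the RNA of the inactive X chromosome, had log2 signals of 7.42 and 7.27 in cKO lenses and was not above background in Control lenses (4.26 and 4.39). The Y-linked Ddx3y was at 6.81 in cKO A and 4.82 in cKO B, against 8.99 and 8.82 in Control lenses. Both transcripts ran with the groups, so genotype and sex cannot be told apart in any difference between the groups given here. The sources used here give no sex. Both cKO arrays detected Xist together with Ddx3y, more strongly on cKO A, and the origin of this mix was not tested. All 9 lens markers examined were detected on all 4 arrays, and no defining marker of muscle (0 of 4) was detected on any. Foxe3, a transcription factor of the lens epithelium, was reduced in cKO lenses (log2 fold change -0.79 ± 0.13, limma adjusted p = 0.018), as was Bfsp2, a beaded filament protein of fiber cells (-0.76 ± 0.14, 0.023). The other 7 lens markers were not called, from -0.48 for Lim2 to -0.051 for Crybb1, and the part of the lens markers in the values below was not tested.

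Among the CIP/KIP genes, Cdkn1a was detected only in cKO lenses. Its protein p21 stops the cell cycle after DNA damage and other stress and is a classic target of the p53 transcription factor. The unnormalized intensity of the probe at base 1734 was 642 in cKO A and 1822.7 in cKO B, against 51.1 in Control A and 45.9 in Control B. At base 1611 the intensity was 286.5 and 662 in cKO lenses and 54.4 and 46.8 in Control lenses, and at base 1428 it was 219.5 and 652.7 against 43.4 and 39.5. All 3 probes were detected on both cKO arrays and on neither Control array.

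The log2 signal of Cdkn1a, averaged over the 3 probes, was 7.91 in cKO A and 9.32 in cKO B, and 4.48 and 4.47 in Control A and Control B. Since both Control lenses were not above background, the difference has only a lower bound. Set against the lowest signal among detected probes of each Control array (log2 signals of 4.72 and 4.76), the cKO mean was at least 14.7-fold higher. The fitted difference (log2 fold change 4.14 ± 0.40, limma adjusted p = 0.0043) sets the cKO lenses against Control values at background, in a gene that passed the detection filter through the cKO arrays alone, so it is not read as a size. Taken probe by probe, in order from base 1428 to 1734, the lower bounds were 9.65-fold, 11.2-fold and 29.0-fold.

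The cKO lenses also differed from each other in Cdkn1a. Array cKO B exceeded cKO A by 1.40 on the log2 scale, or 2.65-fold, and the ratio of the unnormalized intensities was 2.97, 2.31 and 2.84 for the probes at bases 1428, 1611 and 1734. The standard error over beads, which covers the reading of the array and not the RNA or the animal, was 2.25 to 6.8% of the intensity on the cKO arrays. Only 17 genes, 0.148% of those tested, had a larger gap between the cKO lenses, and the median gap over all genes was 0.14. The 2 Control lenses carry no such information, because both were at background. When either cKO lens was left out, Cdkn1a was detected on 1 array only and was not tested, and with the gene kept in the fit by the detection filter of all 4 samples, its fitted log2 fold change was 4.73 without cKO A and 3.30 without cKO B. In these fits the lone cKO lens is assumed to vary like the Control lenses, which were at background, so no p is read from them.

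**Figure D1:**
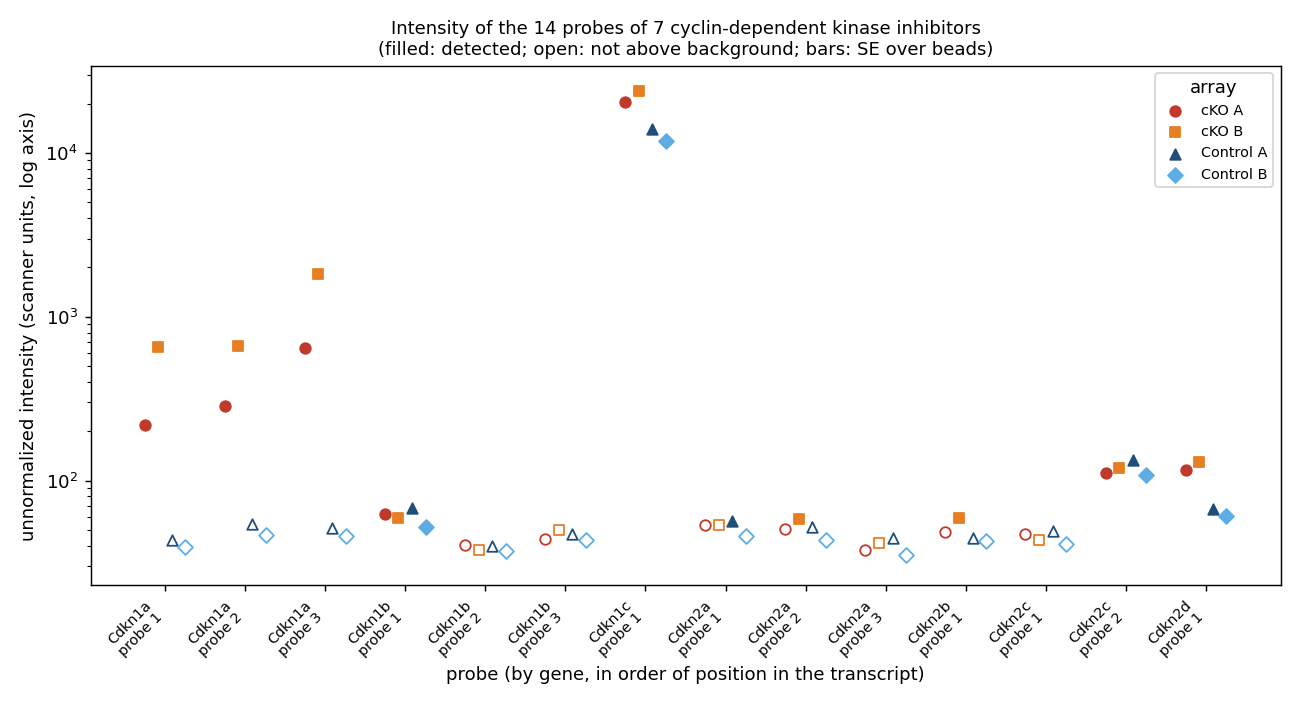
Unnormalized intensity (scanner units, log axis) of the 14 probes of the 7 inhibitors on each of the 4 arrays, with filled symbols for detected probes, open symbols for those not above background, and bars for the standard error over beads. The Cdkn1a probes were filled for both cKO lenses, from 219.5 to 1822.7, and open for both Control lenses, from 39.5 to 54.4, while the Cdkn2a and Cdkn2b probes lay between 35 and 59.4 on every array.

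Cdkn1b encodes p27, which holds CDK2 complexes inactive and is one of the inhibitors tied to cell cycle exit of fiber cells. Of its 3 probes, those at bases 2755 and 2809 were detected on no array, and the probe at base 921 was detected on all 4. The unnormalized intensity of that probe was 62.4 in cKO A, 58.9 in cKO B, 68.3 in Control A and 52.3 in Control B, so that the raw values of the groups overlapped. After normalization the log2 signals were 4.93 and 4.73 in cKO lenses and 5.41 and 5.04 in Control lenses. The log2 fold change was -0.39 ± 0.17 (SE, 95% interval -0.81 to 0.022), which did not pass the test (limma adjusted p = 0.18). It was called at -0.81 (limma adjusted p = 0.015) when the arrays were scaled to a common median over the probes that all 4 detected, where the median over all genes was -0.19, and it ran from -0.64 to -0.22 when each lens was left out in turn. The probe was close to background on every array, with detection p-values from 0.0032 to 0.016, and RNA arrays do not measure the p27 protein.

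Cdkn1c encodes p57, the CIP/KIP inhibitor expressed from the maternal allele of an imprinted region, which accumulates in young fiber cells. Its only probe was far above background on all arrays, with unnormalized intensities of 20508.4 in cKO A, 23854.5 in cKO B, 13931.2 in Control A and 11870.2 in Control B. In the normalized table deposited by the authors, the same probe read 18680.5 and 21170.9 in cKO lenses and 20267.3 and 22846.4 in Control lenses, and there the groups overlapped. With quantile normalization the log2 signals were 14.06 and 14.28 in cKO lenses and 13.81 and 13.93 in Control lenses. The log2 fold change of 0.30 ± 0.15 (SE, 95% interval -0.055 to 0.65) did not pass the test (limma adjusted p = 0.22).

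The value for Cdkn1c turned on how the arrays were scaled to each other. With the deposited normalized table and 16 added to each value, the log2 fold change was -0.11 (limma adjusted p = 0.66). With no normalization between arrays it was 0.78 (limma adjusted p = 0.0042), in a setting where the median over all genes was itself 0.57. Relative to that median, Cdkn1c was higher by 0.21. Neither direction is therefore given for Cdkn1c.

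**Figure D2:**
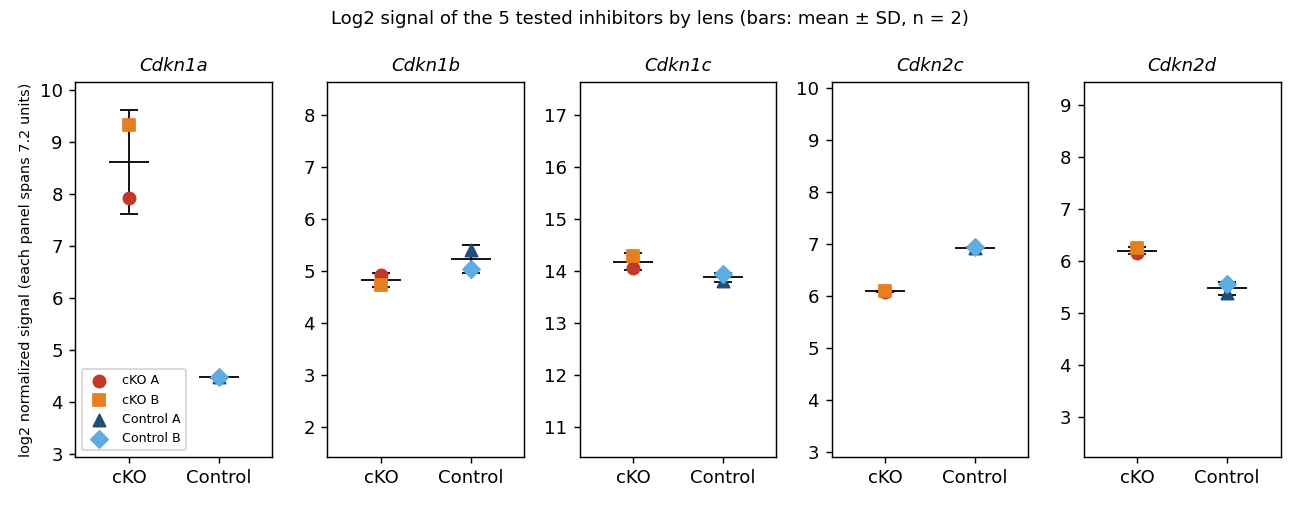
Log2 normalized signal of the 5 tested inhibitors in each lens, with every panel spanning the same number of log2 units and the bars giving the mean ± SD (n = 2). Cdkn1a separates the groups by the widest step and has the widest spread between cKO lenses (7.91 and 9.32), Cdkn2c is lower in both cKO lenses and Cdkn2d is higher in both.

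Among the INK4 genes, Cdkn2c was reduced and Cdkn2d was elevated. Cdkn2c encodes p18, which binds CDK6 and CDK4. The probe at base 93 was detected on no array, and the probe at base 634 was detected on all 4. Its unnormalized intensity was 111.9 in cKO A, 119.8 in cKO B, 133.3 in Control A and 108.7 in Control B, where the groups overlapped. After background correction and quantile normalization the log2 signals were 6.09 and 6.10 in cKO lenses and 6.93 and 6.94 in Control lenses, which did not overlap. The log2 fold change was -0.84 ± 0.13 (SE, limma adjusted p = 0.014), or 1.79-fold lower in cKO lenses. The reduction was a difference relative to the other genes of the same array. With no normalization between arrays the log2 fold change was -0.10 (limma adjusted p = 0.71), and relative to the median of all genes in that setting it was -0.67. The call of Cdkn2c was also lost without cKO A (limma adjusted p = 0.068), cKO B (0.11) or Control B (0.063), and with no detection filter, where the value was -0.45 (0.061).

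Cdkn2d encodes p19, the INK4 protein found widely in differentiated tissues. Its single probe had unnormalized intensities of 116.3 in cKO A, 130.1 in cKO B, 67.5 in Control A and 60.8 in Control B, and was detected on all 4 arrays. Both cKO values were above both Control values before as well as after normalization, where the log2 signals were 6.16 and 6.24 against 5.38 and 5.56. The log2 fold change was 0.73 ± 0.14 (SE, limma adjusted p = 0.025), or 1.66-fold higher in cKO lenses. With no background correction it was 0.49, under the fold threshold. With no normalization between arrays it was 1.36 and with the same median for each array 1.32, where the medians over all genes were 0.57 and 0.53. The call was lost when any of the 4 lenses was left out, with log2 fold changes from 0.65 to 0.86 and adjusted p-values from 0.054 to 0.18. Of these, 0.65 was without Control A, and it was called (adjusted p = 0.0496) when the detection filter of all 4 samples was kept.

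Cdkn2a and Cdkn2b were not tested, since no probe of either was detected on 2 arrays. Cdkn2a encodes p16 and, in another reading frame, p19ARF, which holds back Mdm2. The Cdkn2a probe at base 161 of transcript variant 1 read 51, 58.2, 52.4 and 43.1 on cKO A, cKO B, Control A and Control B, and was detected on cKO B alone. The Cdkn2a probe at base 147 of transcript variant 2 read 53.3, 53.9, 56.3 and 46.2 and was detected on Control A alone, and the probe at base 699 was detected on none. Cdkn2b encodes p15, which responds to TGF-beta in many cells, and its probe read 48.7, 59.4, 44.5 and 42.8, with detection on cKO B alone. The detection p-values on those single arrays were 0.016, 0.040 and 0.014. These values are near background on all arrays and give no level for either gene.

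The call of each tested inhibitor was then followed over the choices of processing. The fitted log2 fold change of Cdkn1a ran from 2.95 to 6.19 over the settings that tested it, with Control values at background in each, and the gene was not tested where detection on all 4 arrays was required. It was not called with the authors' normalized table floored at 1, the source of the 6.19 (limma adjusted p = 0.057), or with no detection filter (0.061). Cdkn2c was lower in every setting and Cdkn2d was higher in every setting, but both calls depended on the threshold and on the samples. Against the fold threshold itself, rather than against 0, Cdkn1b, Cdkn1c, Cdkn2c and Cdkn2d were not called (treat of limma).

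**Figure D3:**
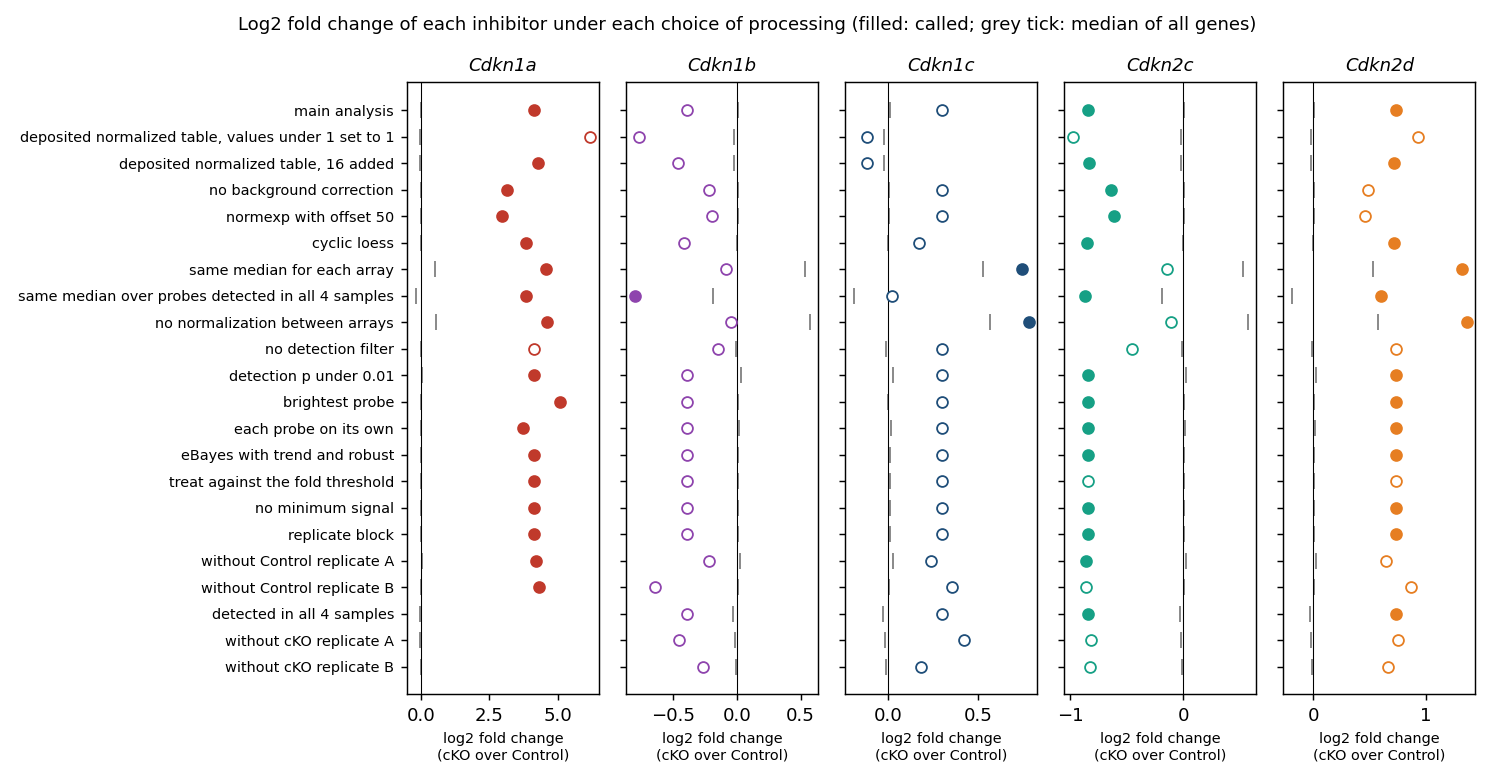
Log2 fold change (Celf1 cKO over Control) of the 5 tested inhibitors under each choice of processing, with filled circles where the gene was called, open circles where it was not, and grey ticks for the median of all genes. Settings without a circle did not test Cdkn1a; Cdkn1c lies on both sides of 0, and the tick moves to 0.53 and 0.57 where arrays were scaled to the same median or not at all.

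Regulators of the inhibitor genes were examined next, and Ddit3, Klf6 and Ezh2 passed the test out of 17 tested (25 listed), where 11.7% of all genes were called, and 10 of the 17 had an unadjusted p under 0.05, beside 31.9% of all genes. Ddit3, the stress-induced transcription factor CHOP, was measured by 2 probes. The probe at base 395 of the Ddit3 record was detected on all arrays, with unnormalized intensities of 2511.2 and 2267.1 in cKO lenses and 139.6 and 113.2 in Control lenses, and a log2 difference of 3.79 (limma adjusted p = 2.0e-04 with detection on all 4 arrays required). The Ddit3 probe at base 513 was not above background in Control lenses, which gives a fold of at least 3.77, and the mean over both probes gave a fitted log2 fold change of 2.97 ± 0.16 (9.1e-04). Klf6, a zinc finger factor known to activate Cdkn1a, was at 9.25 and 9.11 against 8.47 and 8.29 (log2 fold change 0.80 ± 0.15, limma adjusted p = 0.021). Ezh2, the Polycomb methyltransferase that silences the Cdkn2a locus in many cells, was at 6.08 and 6.05 against 7.68 and 6.79 (log2 fold change -1.17 ± 0.27, limma adjusted p = 0.039). The value of Ezh2 was -0.74 without Control A and -1.65 without Control B, and the call of Ezh2 and of Klf6 was lost without either cKO lens (limma adjusted p from 0.099 to 0.17). Klf6 also lost its call without Control B (0.084). With no detection filter Klf6 was at 0.30 (limma adjusted p = 0.15) and Ezh2 at -0.43 (0.17). With no normalization between arrays Ezh2 was at -0.44 (0.17) and Klf6 at 1.66, where the median over all genes was 0.57. Trp53, which encodes p53, was at 6.78 and 6.57 in cKO lenses and at 6.82 and 6.42 in Control lenses, where the groups overlapped (log2 fold change 0.052 ± 0.18, limma adjusted p = 0.87). Mdm2, the p53 ubiquitin ligase and itself a p53 target, was at 9.17 and 9.52 against 8.94 and 8.83 (log2 fold change 0.46 ± 0.17, limma adjusted p = 0.11), and Prox1, a homeodomain factor that acts in fiber cell differentiation, had a log2 fold change of -0.37 ± 0.15 (limma adjusted p = 0.15). The list thus had 2 elevated and 1 reduced gene, and its median log2 fold change of -0.13 stood beside 0.0097 for all genes.

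Promoters of the inhibitors were searched for the p53 element, since Cdkn1a is a classic target of that factor. RefSeq promoter windows (GRCm38.p6, from 250 bases before to 50 after each transcript start) were given for 6 of the 7 genes, as 9 windows. The element of 20 bases, made of 2 adjacent half-sites of the p53 consensus and identical on both strands, was found in none of the 9 windows and in 0.00913% of all 32851 windows. A search that allowed 1 departing base was added after that result and after the Cdkn1a sequence had been read. It matched 1 of the 9 windows, of Cdkn1a, and 0.0883% of all windows. The matching stretch is shown with the element in capitals, since it is the only such match among the inhibitors.
Cdkn1a, GRCm38.p6, plus strand, chr17:29090923-29090952: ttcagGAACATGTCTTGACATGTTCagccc
The element spans bases -51 to -32 relative to the transcript start of the matching window, chr17:29090729-29091028. The other Cdkn1a window, chr17:29093519-29093818 around a transcript start further downstream, held no match. A match of letters is a description of the sequence and was not measured as a bound site.

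Parts of the ubiquitin ligases that act on the inhibitor proteins were examined as well, because p27 and p21 are removed largely by proteolysis. Of 11 tested (13 listed), Rbx1 was elevated and Cul1 and Rnf123 were reduced, against 6.02% elevated and 5.64% reduced over all genes, and 4 of the 11 had an unadjusted p under 0.05, beside 31.9% of all genes. Rbx1, the RING protein of cullin ligases, was at log2 signals of 10.57 and 10.55 in cKO lenses and 9.84 and 9.82 in Control lenses (log2 fold change 0.73 ± 0.13, limma adjusted p = 0.021). Cul1, the scaffold of the SCF ligase, was at 6.63 and 6.73 against 7.93 and 7.53 (log2 fold change -1.06 ± 0.17, limma adjusted p = 0.016). Rnf123, the ligase that removes p27 early in the cell cycle, was at 8.25 and 8.28 against 8.90 and 9.07 (log2 fold change -0.72 ± 0.14, limma adjusted p = 0.025), and this turned to 0.13 with no normalization between arrays, or -0.44 relative to the median of all genes there. The calls of Rbx1, Cul1 and Rnf123 were lost without either cKO lens, and those of Rbx1 and Rnf123 also without Control B. Cul1 was at -0.26 (limma adjusted p = 0.35) with no normalization between arrays and -0.30 (0.29) with the same median for each array. In the same settings Rbx1 was at 1.58 and 1.54, where the medians over all genes were 0.57 and 0.53. With each probe on its own, the Rbx1 probe with the larger adjusted p was at 0.45 (0.12). With the brightest probe taken for each gene, Rbx1 was at 1.02 (0.0097). Skp2, the SCF subunit that recognizes p27, had a log2 fold change of -0.18 ± 0.16 (limma adjusted p = 0.48). The median of the list was 0.089, and Ccnf, a further gene tested in it, was not above background in Control lenses.

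The kinases, cyclins and downstream genes on which the inhibitors act gave no call. Of 13 cyclins, CDKs and their activators tested (21 listed), 0 were called, where 11.7% of all genes were, 3 had an unadjusted p under 0.05, beside 31.9% of all genes, and the median log2 fold change was 0.025. Ccne1, the cyclin partner of CDK2, had log2 signals of 4.90 and 5.38 in cKO lenses and was not above background in Control lenses, so that it was at least 1.32-fold higher, and it was not called (limma adjusted p = 0.059). Ccne2 was also not above background in Control lenses. The D-type cyclins were at log2 fold changes of -0.015 ± 0.17 for Ccnd1, 0.63 ± 0.20 for Ccnd2 and -0.43 ± 0.13 for Ccnd3, with limma adjusted p-values of 0.96, 0.084 and 0.078. Cdk4, the kinase bound by INK4 proteins, was at 7.13 and 7.24 in cKO lenses against 7.21 and 7.16 in Control lenses (log2 fold change -0.0039 ± 0.14).

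Of 9 retinoblastoma and E2F proteins tested (13 listed), which the kinases control, 0 were called and 0 had an unadjusted p under 0.05, beside 11.7% and 31.9% of all genes, with a median log2 fold change of 0.12. Of 16 replication and mitosis genes tested (18 listed), 0 were called and 0 had an unadjusted p under 0.05, beside the same shares, with a median of -0.025 and a range from -0.33 (Mcm2) to 0.30 (Mki67). Mcm3, at a mean log2 signal of 4.62, was not above background in Control lenses. The absence of a call does not show that a gene near background was unchanged. No gene of these 3 lists was called with treat or with trend and robust estimation. In other settings 1 cyclin list gene was called elevated (detection required on all 4 arrays, the replicate block, or Control A left out), and 2 replication list genes were called reduced with a common median over the probes that all 4 arrays detected. With no normalization between arrays, 7, 7 and 6 genes of the cyclin, retinoblastoma and replication lists were called elevated, in the setting whose median over all genes was 0.57. Pcna, Ccna2 and Ccnb2 did not pass the detection filter.

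**Figure D4:**
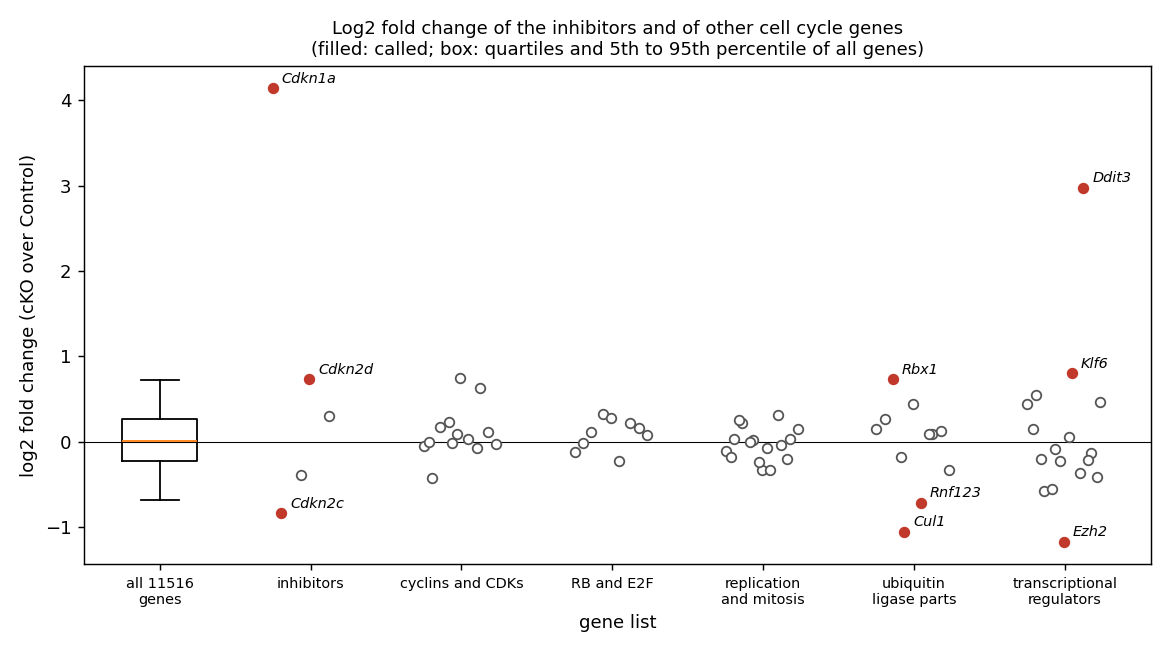
Log2 fold change (Celf1 cKO over Control) of the tested inhibitors and of the 5 lists of cell cycle genes, with called genes filled and named, beside a box for all 11516 genes (quartiles, whiskers at the 5th and 95th percentile). Cdkn1a is at 4.14, set against Control values at background, and Ddit3 is at 2.97, partly so, while no gene of the cyclin, retinoblastoma and replication lists is filled.

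The genes whose 4 values followed each inhibitor most closely were found by the Euclidean distance between log2 values centred on their mean, over 4 lenses. For Cdkn1a these were Fabp3, a fatty acid binding protein (distance 0.99), S100a1, a calcium-binding protein (0.99), and Hspb8, a small heat shock protein (1.15). Fabp3 was at 8.11 and 8.83 in cKO lenses against 5.17 and 5.23 in Control lenses, and Hspb8 at 9.57 and 9.97 against 6.55 and 6.52, so that cKO B was the higher cKO lens for both, as for Cdkn1a, by a smaller step. For Cdkn2c the nearest were Dnajc27 (0.034), Aldh1a7 (0.044) and Nrarp (0.050), and for Cdkn2d Castor2 (0.0051), Traf3 (0.024) and Atp6a1 (0.040). The genes nearest to Cdkn1b were Decr2 (0.024), Calm3 (0.047) and Mmd (0.063), and those nearest to Cdkn1c were Grn (0.011), Abhd3 (0.028) and Gmps (0.030). Abhd3 and Gmps were not above background in Control lenses, so their distances and order rest in part on background values. These distances rest on 4 lenses and are given as a description. For Cdkn1a both Control values were at background, so its distances and their order do not measure likeness in Control lenses.

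The nearest tested gene on each side of an inhibitor was also compared, using the gene order of the RefSeq table. Of the 12 different neighbours, Slc22a18 and Rab44 were called, beside 11.7% of all genes, and Rab44 passed the detection filter through the Control arrays alone, so its call is not read against that share. Slc22a18, a transporter gene next to Cdkn1c in the same imprinted region, was elevated (log2 fold change 1.21 ± 0.14, limma adjusted p = 0.0060), while Kcnq1ot1, the long non-coding RNA on the other side of Cdkn1c, had a log2 fold change of 0.33 ± 0.15 (0.19). Rab44, next to Cdkn1a, was not above background in cKO lenses and at least 1.33-fold lower there, and Srsf3, a splicing factor on its other side, had a log2 fold change of -0.21 ± 0.14 (0.33). The neighbours of Cdkn1b, Cdkn2c, Cdkn2d and the Cdkn2a and Cdkn2b pair were not called. The nearest tested gene was not always close. Slc22a18 was 12.7 kb and Kcnq1ot1 161.8 kb from Cdkn1c, and Elavl2, on 1 side of Cdkn2a, was 1916.9 kb away.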

How the data were processed

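RNA of 4 lenses (1 array each) was hybridized to Illumina MouseWG-6 v2.0 arrays. The authors deposited tables of unnormalized and normalized intensity, with a detection p-value per probe and array. Per the file headers, rank-invariant scaling gave the deposited normalized intensity. Of 45281 probes, 18 lines with shifted cells were left out. Names came from a RefSeq table of GRCm38.p6, through the Entrez identifier (29586 probes), transcript accession (2759), current symbol (2214) or older symbol (2370), while 8334 probes kept the files' symbol.

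From the deposited unnormalized intensity, log2 signal was computed with the neqc steps of limma 3.58.1 (R 4.3.3), with an offset of 16, negative controls inferred from detection p-values and quantile normalization. Detected probes of a gene were averaged as log2 values. Groups were compared with the two-sided test of lmFit and eBayes, and p-values were adjusted by Benjamini-Hochberg over 11516 genes. The study's own count model was not used on intensity. An exact permutation test of 2 against 2 lenses cannot go below p = 0.333 and was not run on single genes. The arrays' number limits the precision. The fit was tested on simulated data. Where a group had no detected probe, a lower bound of the fold was computed per array.

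The members and gene lists were chosen with earlier results of these data known. Genes named are the 7 members, Celf1, the called genes of the lists, the 3 nearest in pattern to each tested member, and further list genes, sex-linked genes and markers given with their values. Other backgrounds, scalings, filters, probe rules, variance models, a replicate block and leaving out each lens were tried, and leave-one-out with the detection filter of all 4 samples was added after the data were seen. Replicate letters A and B paired nothing that the labels name.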

Additional observations from a re-analysis of the deposited data

How the results depend on the processing

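All log2 fold changes here are cKO over Control. The authors' normalized table, floored at 1, gave 6.19 for Cdkn1a, -0.11 for Cdkn1c, -0.97 for Cdkn2c, 0.93 for Cdkn2d and -1.52 for Celf1, with 0 inhibitors, 1 listed gene and 7 genes in all called. With 16 added, Cdkn1c was -0.11. No detection filter gave 4.14 for Cdkn1a, -0.45 for Cdkn2c, 0.73 for Cdkn2d and -1.16 for Celf1, with 0 inhibitors, 2 listed and 207 genes called. Cdkn2d was 0.49 with no background correction and 0.46 with normexp and an offset of 50, where 789 genes were called. The same median for each array gave 0.75 for Cdkn1c, -0.14 for Cdkn2c and 0.095 for Rnf123, with 31 listed and 5417 genes called, 97.3% of them elevated against 51.6% in the analysis reported. No normalization gave 0.78, -0.10 and 0.13, with 34 listed and 5789 genes called (97.7% elevated). A common median over the probes that all 4 arrays detected gave a call for Cdkn1b (-0.81), with 2692 genes called (24.9% elevated) and a median over all genes of -0.19. Treat left the values of Cdkn2c (-0.84), Cdkn2d (0.73) and Celf1 (-1.43) as they were but called 1 inhibitor, 1 listed gene and 83 genes. The share of elevated calls was 45.8% with treat and 71.4% with the first table.

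Leaving out each lens in turn called 163 to 1356 genes (594 and 163 when cKO A or cKO B was left out, 171 without Control B), 0 to 2 inhibitors and 1 to 7 listed genes, with ranges of 4.22 to 4.31 for Cdkn1a (Control lenses only, since it was not tested without a cKO lens), -0.64 to -0.22 for Cdkn1b, 0.19 to 0.42 for Cdkn1c, -0.86 to -0.81 for Cdkn2c, 0.65 to 0.86 for Cdkn2d and -1.67 to -1.18 for Celf1. Cdkn2c was called only without Control A, and Celf1 lost its call without Control B (-1.53). With the detection filter of all 4 samples kept, 182 to 1545 genes (658 without cKO A, 339 without Control B) and 1 to 3 inhibitors were called, Cdkn1a was at 3.30 to 4.73, Cdkn2c at -0.81, -0.82 and -0.85 and Cdkn2d at 0.75, 0.66 and 0.86 when cKO A, cKO B and Control B, in that order, were left out. With the replicate letter as a block 1675 genes were called, against 1342 without it, and Cdkn1a (4.14), Cdkn2c (-0.84) and Cdkn2d (0.73) stayed called. The differences A minus B of the groups correlated at -0.011 across genes. A correlation over all genes cannot exclude a pairing that touches some of them, and the labels name no pairing. The causes of these changes were not tested.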

Other observations

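Cdkn3, a phosphatase that acts on CDK2 and carries the same symbol stem without belonging to either inhibitor family, was chosen after its values were seen. It had log2 signals of 5.51 and 5.70 in cKO lenses and 5.03 and 4.82 in Control lenses (log2 fold change 0.68 ± 0.15, limma adjusted p = 0.035). The Cdkn3 probe behind these values was close to background in Control lenses (detection p-values 0.016 and 0.040). The other Cdkn3 probe was detected on no array, with overlapping unnormalized intensities of 43.2 and 47.3 in cKO lenses and 46.6 and 41.1 in Control lenses. Cdkn2aipnl, a relative of a protein that binds p19ARF, was at 7.71 and 7.73 against 7.61 and 7.98, where the groups overlapped (log2 fold change -0.077 ± 0.17, limma adjusted p = 0.78). The probe of Cdkn2aip was detected on 0 arrays.

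Markers of other tissues were present in part. Of 5 blood markers 2 were detected on every array, of 5 vessel markers 3 to 5, of 5 macrophage markers 2 to 4 and of 5 pigment cell markers 1 to 3, and the summed background-corrected signal of the blood markers was 684.2 and 279.9 in cKO lenses and 518.8 and 403.9 in Control lenses. Cd68, a macrophage marker, was the only called gene among these lists (at least 1.26-fold higher in cKO lenses, with Control lenses not above background), and it passed the detection filter through the cKO arrays alone. Their part in the inhibitors' values was not tested.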
